A study of Oryza sativa Japonica Group with 6 samples.

Results

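The tandem glutathione transferase genes of rice chromosome 10 were examined in cold-treated early seedlings. The members were 10 loci given by a fixed list as glutathione S-transferases, from LOC_Os10g38340 to LOC_Os10g38780, out of 55986 loci in the expression files. The list names them by identifier and applies no measured value, but it was chosen with earlier results of these data known. The interval between these 2 identifiers holds 38 loci in all, so 28 loci lie among the members without belonging to the list, and LOC_Os10g38660, also described as a glutathione S-transferase in the study's gene table, is one of them. The files give no gene description. Of the 10 members, the study's table of changed genes describes LOC_Os10g38350 and LOC_Os10g38360 as glutathione S-transferases, and for the other 8 this identity, like the tau class of all 10, was taken from the list and was not checked against sequence. That table was drawn up on the same samples, so the values of these 2 members are not independent of it.

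Glutathione transferases join the tripeptide glutathione to reactive, electrophilic compounds, which makes the products more soluble and marks them for transport into the vacuole. The tau class is specific to plants and is best known in cereals from the detoxification of herbicides. Several of its enzymes also act as glutathione peroxidases that reduce the lipid hydroperoxides formed under oxidative stress. Tau genes commonly lie in tandem arrays, and their transcripts respond to many stresses.

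The overexpression plants (OEZ) were the japonica variety Zhonghua17 carrying the open reading frame of OsLTPL159, a lipid transfer protein gene, from the cold-tolerant introgression line IL112 under the constitutive CaMV 35S promoter. The control plants (ZH17) were nontransformed Zhonghua17. The sources speak of OEZ both as 1 line and as several, and whether more than 1 transformation event was pooled is not stated. Seedlings of both genotypes, with buds of about 5 mm, had been kept at 2 °C for 3 h, and no seedlings without cold treatment were part of the series, so a difference between the genotypes says nothing about a response to cold. There were 3 biological replicates per genotype, each a pool of 50 plants. Expression was given as FPKM, the number of sequenced fragments scaled to the exon length of the gene and to the size of the library, so that levels can be compared between genes.

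The libraries differed in estimated size, with OEZ replicates 1 and 3 deeper than every ZH17 pool. Read counts were not given. Relative depth was taken as the most frequent ratio of a locus's FPKM in ZH17 replicate 1 to that in the pool. Loci above 0 and under 0.15 FPKM in both pools were used. Between 200 and 327 of 904 to 1031 such loci lay at that ratio. With ZH17 replicate 1 set to 1, relative depth was 1.02 to 1.32 in the OEZ pools and 1.0 to 1.16 in the ZH17 pools. The transgene checked the labels, with a mean OsLTPL159 (LOC_Os10g36160) level of 2516 ± 20.7 FPKM in OEZ and 137 ± 4.98 FPKM in ZH17 (SD, n = 3 pools each). The 11 chlorophyll A-B binding protein genes of the study's gene table, markers of green tissue, were all above 0. Their summed level was 5748 to 6783 FPKM in OEZ against 10131 to 10765 FPKM in ZH17. For 10 of the 11 every OEZ pool was below every ZH17 pool, and for 1 every OEZ pool was above. The 4 alpha-amylase genes of the same table, markers of the aleurone and scutellum of the grain, summed to 1.89, 167 and 2.05 FPKM in OEZ replicates 1, 2 and 3, against 68.9 to 179.8 FPKM in ZH17. The OEZ pools therefore differed among themselves in this sum, with that of replicate 2 within the range of ZH17. For 1 of the 4 genes every OEZ pool was below every ZH17 pool, and for 3 the pools overlapped. Both marker lists were drawn here from the study's table of changed genes, which rests on these samples. Their differences between the genotypes are therefore not independent of that choice. In pools of whole seedlings, fewer cells of a type and less RNA per cell cannot be told apart.

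Of the 10 members, 9 were expressed above the filter of 0.5 FPKM on the mean of the 6 pools and were compared between genotypes. In the limma fit used here, LOC_Os10g38360 was the only member past both thresholds, and it was lower in OEZ. The thresholds were those of the study's methods (adjusted p under 0.05, with a change by 1.5 times or more). This was 1 of 9 members, against 2.98% of the 22841 tested loci in either direction and 1.42% in the lower direction. The study's own table of changed genes, drawn up with Cuffdiff, also holds LOC_Os10g38350. None of the 9 was past both thresholds in the higher direction, where 1.56% of all tested loci were. In limma 4 of the 9 members had an unadjusted p under 0.05, where 23.2% of all tested loci did. Without the criterion on fold change 2 had an adjusted p under 0.05, LOC_Os10g38360 with lower and LOC_Os10g38740 with higher expression in OEZ, where 1371 of the 22841 tested loci (6.0%) did. The median log2 fold change of the 9 members was 0.08, beside 0.02 over all tested loci. Of the 9 values, which ranged from -0.76 to 0.55, 5 were positive and 4 negative, and 53.3% of those of all tested loci were positive.

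LOC_Os10g38740 was by far the most highly expressed member. It had 985, 829 and 898 FPKM in OEZ replicates 1, 2 and 3, against 563, 588 and 706 FPKM in ZH17 replicates 1, 2 and 3. Every OEZ pool was above every ZH17 pool, with a gap of 123 FPKM between the lowest OEZ and the highest ZH17 pool. The means were 904 ± 78.3 FPKM in OEZ and 619 ± 76.6 FPKM in ZH17 (SD, n = 3). An exact permutation test, two-sided, gave p = 0.1, and 3 pools against 3 cannot give a smaller one. On the log2 scale the difference was 0.55 (standard error 0.10, 95% interval 0.30 to 0.80, limma adjusted p = 0.03), a fold change of 1.46 that was just short of the 1.5 required. The adjusted p was 0.056 with no filter on low values, 0.076 without the variance trend of limma and 0.094 with the replicate number as a block. By its mean over the 6 pools it ranked 94th among the tested loci. In the 6 fits that each left out 1 pool, the log2 fold change stayed between 0.49 and 0.65 and the adjusted p ranged from 0.011 to 0.11. It was past both thresholds only without ZH17 replicate 3 (log2 fold change 0.65, limma adjusted p = 0.011), the ZH17 pool with the highest level of this gene.

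LOC_Os10g38360 showed the opposite pattern. Its expression was 59.9, 41.4 and 54.5 FPKM in OEZ replicates 1, 2 and 3, against 78.4, 76.6 and 86.4 FPKM in ZH17 replicates 1, 2 and 3. All OEZ pools were below all ZH17 pools. The lowest value was that of OEZ replicate 2, the pool whose summed grain markers were within the range of ZH17. The means were 51.9 ± 9.52 FPKM in OEZ and 80.4 ± 5.19 FPKM in ZH17 (SD, n = 3, exact permutation test, two-sided, p = 0.1). The log2 fold change was -0.65 (SE 0.13, 95% interval -0.96 to -0.33, limma adjusted p = 0.04), a fold change of 0.639. The call was lost with no filter on low values (adjusted p = 0.062), without the variance trend of limma (0.091) and with the replicate number as a block (0.071). Leaving out any of the 6 pools ended it as well, with log2 fold changes from -0.76 (without OEZ replicate 1) to -0.49 (without OEZ replicate 2) and adjusted p values from 0.047 to 0.11. The sum of the green-tissue markers was also lower in every OEZ pool, though 1 of these 11 genes was higher. The part of this sum in the difference was not tested.

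**Figure D1:**
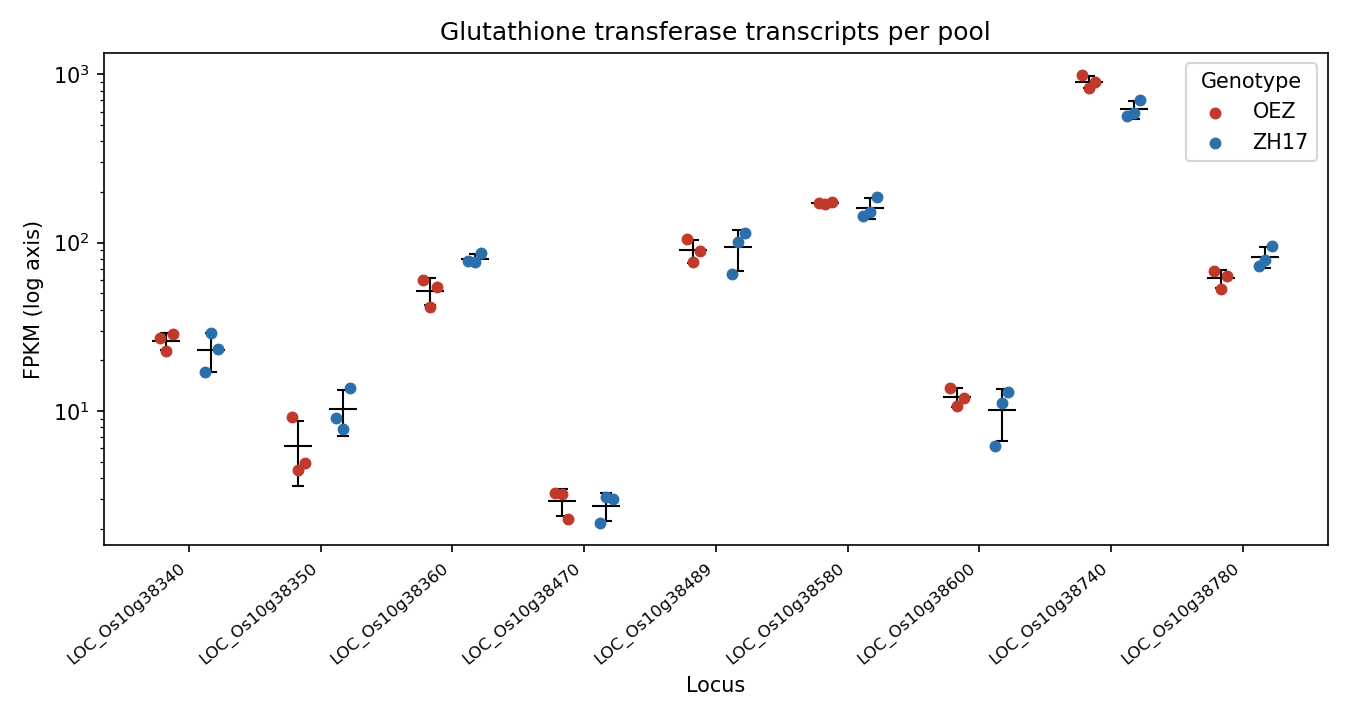
Expression of the 9 tested glutathione transferase loci in each pool, as FPKM on a log axis, with OEZ (red) to the left of ZH17 (blue). Points are single pools, and bars give the mean and SD of 3 pools. LOC_Os10g38740 lies at 829 to 985 FPKM in OEZ and 563 to 706 FPKM in ZH17, while the OEZ points of LOC_Os10g38360 and LOC_Os10g38780 lie below those of ZH17.

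LOC_Os10g38780, at the far end of the interval, was the only other member whose pools did not overlap. It had 68.0, 53.3 and 63.1 FPKM in OEZ replicates 1, 2 and 3, against 72.9, 79.1 and 95.8 FPKM in ZH17 replicates 1, 2 and 3. The gap between the genotypes was small, since OEZ replicate 1 and ZH17 replicate 1 differed by 4.90 FPKM, less than the SD of either genotype (7.49 FPKM in OEZ and 11.8 FPKM in ZH17, n = 3). The log2 fold change was -0.42 (standard error 0.13, 95% interval -0.72 to -0.13) and did not pass the adjustment over all loci (limma adjusted p = 0.10). In all, 1 of the 9 tested members had every OEZ pool above every ZH17 pool, where 16.0% of all tested loci did, and 2 had every OEZ pool below, where 13.2% did.

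LOC_Os10g38350, the direct neighbour of LOC_Os10g38360 by identifier, had the lowest log2 fold change of the members but also the widest error. It had 9.17, 4.46 and 4.89 FPKM in OEZ replicates 1, 2 and 3, against 9.14, 7.85 and 13.8 FPKM in ZH17 replicates 1, 2 and 3. OEZ replicate 1 was level with ZH17 replicate 1 and above ZH17 replicate 2, so that the genotypes overlapped. The means were 6.18 ± 2.60 FPKM in OEZ and 10.3 ± 3.13 FPKM in ZH17 (SD, n = 3), and the log2 fold change of -0.76 (standard error 0.31, 95% interval -1.49 to -0.03) had a limma adjusted p = 0.20. The study's table of changed genes lists LOC_Os10g38350, so the limma fit and the study's Cuffdiff test differed on it. LOC_Os10g38340, on its other side, had 27.0, 22.8 and 28.6 FPKM in OEZ replicates 1, 2 and 3, against 17.1, 29.2 and 23.2 FPKM in ZH17 replicates 1, 2 and 3. Here the ZH17 pools spanned the OEZ pools, and the log2 fold change was 0.20 (95% interval -0.25 to 0.64, limma adjusted p = 0.58). The first 3 loci of the interval thus had log2 fold changes of both signs.

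The next 2 members by expression showed no difference between genotypes larger than the spread of their pools. LOC_Os10g38580 had 173, 169.6 and 174 FPKM in OEZ replicates 1, 2 and 3, against 143, 152 and 186 FPKM in ZH17 replicates 1, 2 and 3. The OEZ pools lay within the range of ZH17 and were close to each other, with a coefficient of variation of 1.32% against 14.2% in ZH17. Its log2 fold change was 0.11 with a 95% interval from -0.12 to 0.34, which leaves out a change by 1.5 times in either direction. LOC_Os10g38489 had 105, 76.4 and 88.9 FPKM in OEZ replicates 1, 2 and 3, against 65.4, 101 and 114 FPKM in ZH17 replicates 1, 2 and 3. The ZH17 pools again spanned the OEZ pools, and the log2 fold change was -0.03 (95% interval -0.53 to 0.47). LOC_Os10g38600 reached 13.7, 10.7 and 11.9 FPKM in OEZ replicates 1, 2 and 3, against 6.22, 11.2 and 12.9 FPKM in ZH17 replicates 1, 2 and 3, with ZH17 replicate 1 apart from the other pools. Without that pool its log2 fold change of 0.32 became 0.00.

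At the low end, LOC_Os10g38470 had 3.25, 3.20 and 2.29 FPKM in OEZ replicates 1, 2 and 3, against 2.16, 3.08 and 2.99 FPKM in ZH17 replicates 1, 2 and 3. The ranges overlapped nearly whole (log2 fold change 0.08, 95% interval -0.39 to 0.56). LOC_Os10g38610 was the member that did not reach the filter. It was listed at 0 in OEZ replicate 1 and had 0.115 and 0.223 FPKM in OEZ replicates 2 and 3, against 0.117, 0.165 and 0.101 FPKM in ZH17 replicates 1, 2 and 3. Such levels are near the lowest that the files hold, and no difference was detectable there.

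**Figure D2:**
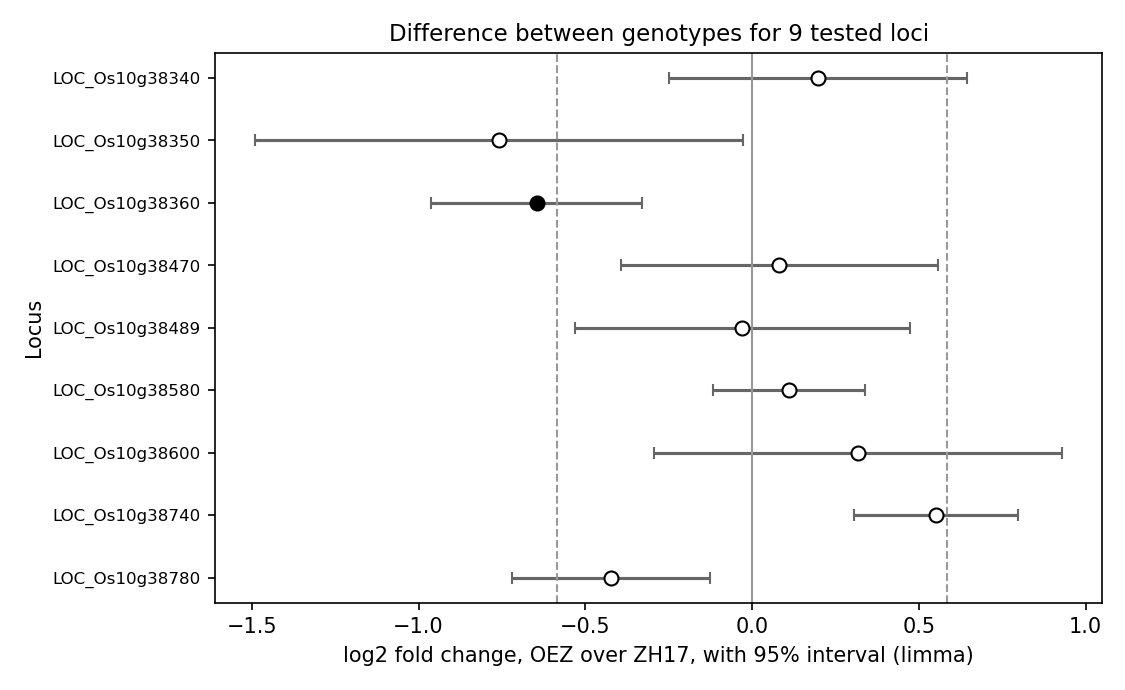
Difference between genotypes for the 9 tested loci in the order of their identifiers, as log2 fold change of OEZ over ZH17 with its 95% interval from limma. The filled point, LOC_Os10g38360 at -0.65, is past both thresholds. Dashed lines mark a fold change of 1.5 in either direction, and LOC_Os10g38740 at 0.55 lies inside the upper one.

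The levels of the members covered a wide range and kept most of their order. Over the 6 pools the means ran from 762 FPKM for LOC_Os10g38740 through 166 FPKM for LOC_Os10g38580, 91.8 FPKM for LOC_Os10g38489, 72.0 FPKM for LOC_Os10g38780 and 66.2 FPKM for LOC_Os10g38360 to 24.7 FPKM for LOC_Os10g38340. Below these came LOC_Os10g38600 with 11.1 FPKM, LOC_Os10g38350 with 8.22 FPKM, LOC_Os10g38470 with 2.83 FPKM and LOC_Os10g38610 with 0.12 FPKM. The first 2 held their places in all 6 pools. LOC_Os10g38489 exceeded LOC_Os10g38780 in 5 of 6 pools, LOC_Os10g38780 exceeded LOC_Os10g38360 in 5 of 6, and LOC_Os10g38600 exceeded LOC_Os10g38350 in 4 of 6, so that these neighbours in the order were not separated beyond the spread of their pools. The other steps held in every pool.

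Within a genotype the members tended to be high or low in the same pool. OEZ replicate 2 held the lowest OEZ value of 8 of the 9 tested members, and of 36.1% of all tested loci. ZH17 replicate 1 held the lowest ZH17 value of 7 of 9 (41.9% of all tested loci), and ZH17 replicate 3 the highest of 7 of 9 (41.7%). OEZ replicate 2 was also the OEZ pool with the lowest relative depth, 1.02, and with the highest sum of the grain markers. The part of depth or of these markers in this was not tested.

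The summed expression of the 10 loci was 1444, 1211 and 1327 FPKM in OEZ replicates 1, 2 and 3, against 957, 1048 and 1242 FPKM in ZH17 replicates 1, 2 and 3, so the sums of the genotypes overlapped. Without LOC_Os10g38740 the sum was 459, 382 and 428 FPKM in OEZ against 395, 460.3 and 536 FPKM in ZH17. The share of LOC_Os10g38740 was 68.2%, 68.5% and 67.7% of the summed FPKM in OEZ replicates 1, 2 and 3, against 58.8%, 56.1% and 56.9% in ZH17 replicates 1, 2 and 3. That of LOC_Os10g38360 was 4.15%, 3.42% and 4.11% in OEZ against 8.19%, 7.31% and 6.95% in ZH17. LOC_Os10g38780 contributed 4.71%, 4.40% and 4.76% in OEZ against 7.62%, 7.54% and 7.71% in ZH17. These 3 shares did not overlap between the genotypes, nor did those of LOC_Os10g38580, with 12.0%, 14.0% and 13.1% in OEZ against 15.0%, 14.5% and 15.0% in ZH17, and of LOC_Os10g38350, with 0.635%, 0.368% and 0.369% in OEZ against 0.955%, 0.749% and 1.11% in ZH17. In all, the shares of 5 of the 10 members did not overlap, 1 above and 4 below ZH17. Such shares exist only within the list, so no figure over all loci stands beside this count. In FPKM, the pools of LOC_Os10g38580 and LOC_Os10g38350 overlapped. There, 1 of the 9 tested members lay above (16.0% of all tested loci) and 2 lay below (13.2%). Shares add up to a fixed total, so the larger share of 1 locus lowers those of the rest.

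Ratios between loci within a pool do not depend on the scaling between libraries or on the sum of the members. Reads shared between tandem copies could still affect them. The pairs named here were chosen after their values had been seen, and the ratios are given as a description. The level of LOC_Os10g38740 was 16.4, 20.03 and 16.5 times that of LOC_Os10g38360 in OEZ replicates 1, 2 and 3, against 7.18, 7.67 and 8.18 times in ZH17 replicates 1, 2 and 3. Set against LOC_Os10g38780, it was 14.5, 15.6 and 14.2 times in OEZ and 7.72, 7.44 and 7.37 times in ZH17. The mean of this last ratio was 14.8 ± 0.70 in OEZ and 7.51 ± 0.18 in ZH17 (SD, n = 3). Towards LOC_Os10g38580 the ratio was 5.25 ± 0.41 in OEZ and 3.86 ± 0.07 in ZH17 (SD, n = 3).

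**Figure D3:**
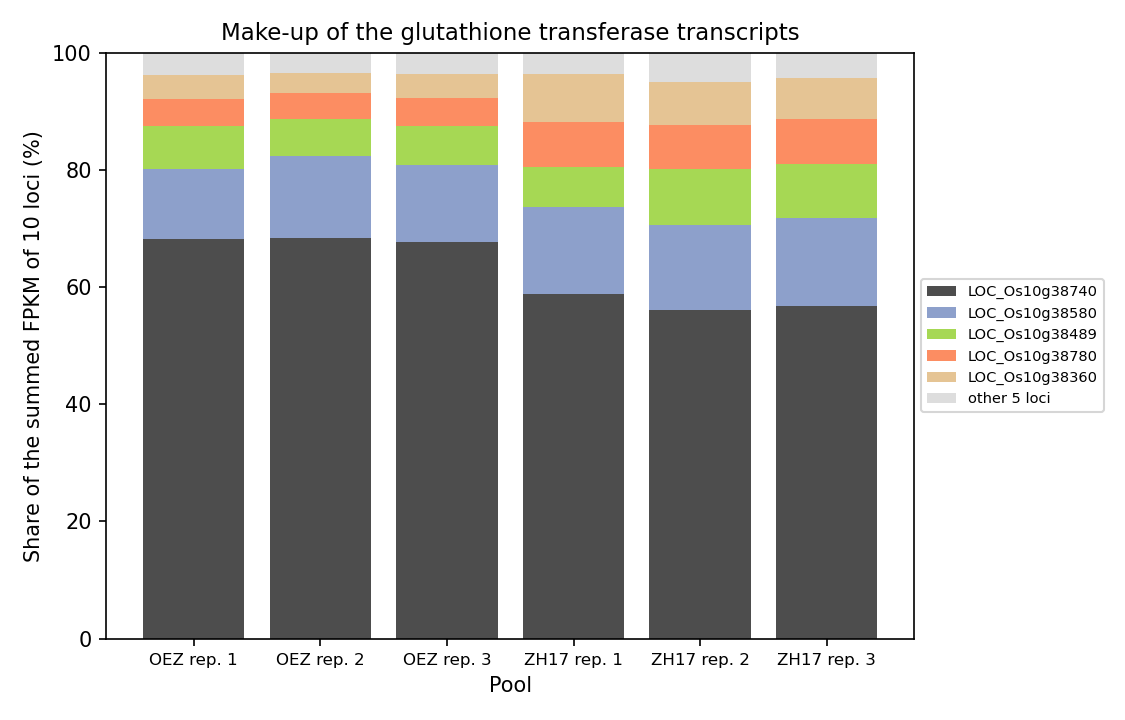
Share of each locus in the summed FPKM of the 10 loci, in percent, with the OEZ pools on the left and the ZH17 pools on the right. The 5 loci with the lowest means are drawn together. LOC_Os10g38740 makes up 67.7% to 68.5% of the sum in OEZ and 56.1% to 58.8% in ZH17, and the bands of LOC_Os10g38360 and LOC_Os10g38780 are narrower in OEZ.

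The 28 other loci of the interval were set beside the members. Of these, 17 were listed at 0 in all 6 pools and 9 were tested, of which none was past both thresholds (limma, 3 at an unadjusted p under 0.05, against 23.2% of all tested loci). Their log2 fold changes ranged from -0.81 to 0.52, with a median of 0.12. These 3 are named after their values had been seen. LOC_Os10g38590, between 2 members by identifier, had the lowest adjusted p, with 83.9, 85.4 and 86.7 FPKM in OEZ replicates 1, 2 and 3, against 67.3, 57.5 and 54.5 FPKM in ZH17 replicates 1, 2 and 3. Its log2 fold change of 0.52 (SE 0.08, limma adjusted p = 0.017) was short of the fold criterion, which it met without ZH17 replicate 1 (0.61, adjusted p = 0.005). The limma adjusted p was 0.056 without the variance trend and 0.074 with the replicate block. It was 0.065 to 0.081 without 1 of the OEZ pools and 0.075 without ZH17 replicate 2. With no filter on low values it was 0.027, and without ZH17 replicate 3 it was 0.022. LOC_Os10g38700 had a log2 fold change of -0.56 (limma adjusted p = 0.058), with every OEZ pool below every ZH17 pool, and LOC_Os10g38730 had 0.39 (limma adjusted p = 0.052), with every OEZ pool above. The study's gene table describes LOC_Os10g38660 as a glutathione S-transferase, and whether other neighbours are such genes was not checked. LOC_Os10g38660 had 3.57, 3.71 and 2.22 FPKM in OEZ replicates 1, 2 and 3. In ZH17 replicates 1, 2 and 3 it had 8.13, 7.20 and 2.82 FPKM. Its ZH17 replicate 3 lay among the OEZ pools, and the log2 fold change of -0.81 (SE 0.40, limma adjusted p = 0.28) was past the thresholds only without that pool (-1.28, adjusted p = 0.027). Of the 18 tested loci of the interval, members and neighbours together, 10 had positive and 8 negative log2 fold changes, where 53.3% of all tested loci were positive. In limma 3 of the 18 had an adjusted p under 0.05 at any fold change, where 6.0% of all tested loci did.

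**Figure D4:**
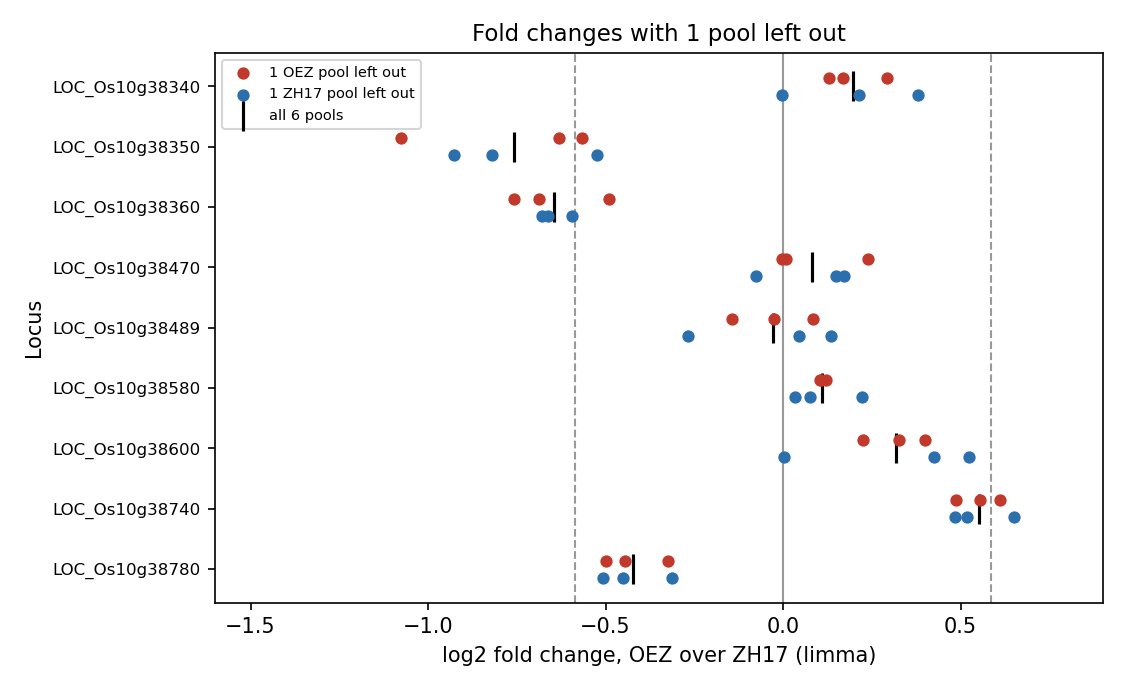
Log2 fold change of OEZ over ZH17 for each tested locus when 1 pool is left out (red, an OEZ pool; blue, a ZH17 pool), with the value from all 6 pools as a black line and dashed lines at a fold change of 1.5. LOC_Os10g38360 stays between -0.76 and -0.49 and LOC_Os10g38740 between 0.49 and 0.65, while LOC_Os10g38340, LOC_Os10g38470 and LOC_Os10g38489 fall on both sides of 0.

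Among 9 further glutathione S-transferase genes named in the study's gene table, LOC_Os10g38660 among them, 4 were past both thresholds, where 2.98% of all tested loci were. The study had chosen these genes as changed on the same samples, so neither this count nor their directions are independent evidence. LOC_Os01g27390 rose to 121 ± 4.47 FPKM in OEZ, against 70.9 ± 1.98 FPKM in ZH17 (SD, n = 3, log2 fold change 0.77, limma adjusted p = 0.00069). LOC_Os01g27630 rose to 1.98 ± 0.305 FPKM in OEZ, against 0.379 ± 0.197 FPKM in ZH17 (log2 fold change 2.20, limma adjusted p = 0.019), a call lost when any of the OEZ pools was left out (adjusted p from 0.071 to 0.086). LOC_Os01g72170 fell to 7.05 ± 0.249 FPKM in OEZ, against 11.2 ± 2.24 FPKM in ZH17 (log2 fold change -0.64, limma adjusted p = 0.048), and of the 6 fits without 1 pool it was past the thresholds only in that without ZH17 replicate 1. LOC_Os10g34020, on the same chromosome as the members, fell to 0.352 ± 0.012 FPKM in OEZ, against 1.12 ± 0.286 FPKM in ZH17 (log2 fold change -1.40, limma adjusted p = 0.043), and was not past the thresholds in any of the 6 fits without 1 pool. Of the other 5, LOC_Os09g20220 had the highest level, 75.3 ± 12.6 FPKM in OEZ and 45.4 ± 11.5 FPKM in ZH17 (log2 fold change 0.75, limma adjusted p = 0.087). LOC_Os01g27260, LOC_Os01g72150 and LOC_Os01g72160 had log2 fold changes of 0.84, 1.08 and 1.02 (limma adjusted p = 0.12, 0.058 and 0.22), and all 3 were past the thresholds without ZH17 replicate 3 (adjusted p = 0.042, 0.023 and 0.048). No gene of this list reached the level of LOC_Os10g38740.

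Glutathione itself is made in 2 enzymatic steps, is oxidized by peroxidases and dehydroascorbate reductases, and is restored by glutathione reductase. A list of 15 loci for these steps was drawn up from general knowledge of the rice annotation, since the files do not annotate them, and is given by counts only. None of the 15 was past both thresholds (limma, 7 at an unadjusted p under 0.05, against 23.2% of all tested loci), and the log2 fold changes ranged from -0.37 to 0.47 with a median of -0.09. Without the criterion on fold change, 1 of 15 had an adjusted p under 0.05 (6.0% of all tested loci), a locus listed as a dehydroascorbate reductase, with higher expression in OEZ.

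The loci with the profile most like that of the 2 strongest members were looked for among 14691 loci outside the interval with a mean of at least 5 FPKM, by the root mean square difference of the centred log2 profiles over the 6 pools. For LOC_Os10g38740 they were LOC_Os11g29370, LOC_Os06g14400 and LOC_Os05g33630, with differences of 0.04, 0.04 and 0.05 on the log2 scale. LOC_Os11g29370 had 84.1, 72.1 and 74.1 FPKM in OEZ replicates 1, 2 and 3, against 48.3, 48.04 and 57.2 FPKM in ZH17 replicates 1, 2 and 3, and likewise was lowest in OEZ replicate 2 and highest in ZH17 replicate 3 within its genotype. For LOC_Os10g38580 they were LOC_Os06g47290, LOC_Os05g07090 and LOC_Os01g19480, with differences of 0.02, 0.02 and 0.03. With 6 pools and so many loci some profiles will be close in any case.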

How the data were processed

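Paired-end RNA-seq reads of 3 OEZ and 3 ZH17 pools were mapped by the authors with TopHat2 at default parameters to IRGSP-1.0 with the MSU7 annotation. The authors deposited FPKM per locus from Cuffdiff, 1 value per locus and library. Versions, the scaling between libraries and the treatment of reads that match several loci are not given in the sources used here. Tandem copies can share reads, so levels of single members are uncertain to that extent. The name of the identifier column differs in OEZ replicates 2 and 3. Sequences and coordinates were not used here.

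Log2(FPKM + 0.1) of the 22841 loci averaging 0.5 FPKM or more was compared in limma 3.58.1 (R 4.3.3) with a variance trend and Benjamini-Hochberg adjustment over all tested loci. Fold changes on this scale understate those of low loci. Calls required an adjusted p under 0.05 and a change by 1.5 times or more. Cuffdiff needs the reads and was not repeated. Permutation tests used scipy 1.17.1. Simulated data for OEZ against ZH17 had 22549 loci tested and 50 loci changed per fold. The changed loci were drawn from those with a mean of at least 5 FPKM, so recovery at lower levels was not tested. Of each 50, 22 were recovered at a fold change of 1.6, 38 at 2, 48 at 4 and 49 at 8, and 5 unchanged loci were called. Each locus was drawn independently in each pool from its mean and within-genotype spread. Shifts shared by many loci of a pool were therefore not simulated, and these counts do not cover them.

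The members, lists and tests were chosen with earlier results of these data known. The rule named all 10 members, any neighbour past the thresholds (there was none), the other glutathione S-transferases of the study's gene table, the transgene, and the 3 loci with the nearest profile for each of the 2 strongest members. Other neighbours were named after their values had been seen. Alternatives were 2 pseudocounts, 3 filters, 2 scalings, no variance trend, 2 fold criteria, the ratio of means, a replicate block, and leaving out each pool.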

Additional observations from a re-analysis of the deposited data

How the results depend on the processing

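The count of members past the thresholds (1, LOC_Os10g38360) was unchanged under 7 settings: both pseudocounts, filters at 1 and 5 FPKM, both scalings and the ratio of mean FPKM. It was 0, as was that of lower members, with no filter (limma adjusted p = 0.062 for LOC_Os10g38360), without the variance trend (0.091), with a required fold change of 2 and with the replicate block (0.071; 0.094 for LOC_Os10g38740), and 2 (1 lower) without a fold criterion. Leaving out 1 pool gave 0 to 1 members, and 0 lower members in every case; the 1, LOC_Os10g38740, appeared without ZH17 replicate 3. Of 143 member values under alternatives, 127 kept direction and side of the thresholds. Over all loci, 681 (357 higher, 324 lower) became 290 (175 and 115) with a required fold change of 2, 1371 (653 and 718) without that criterion and 321 (201 and 120) with the replicate block. Leaving out 1 pool gave 327 to 967 loci, 181 to 451 higher and 139 to 516 lower. The cause of these shifts was not tested. Over all tested loci same-numbered pools did not deviate together (correlation of deviations -0.06 to 0.03, with -0.05 to 0.04 for different numbers). A pairing that acts on some loci only cannot be seen in this way. The block also ended the calls of LOC_Os01g27630, LOC_Os01g72170 and LOC_Os10g34020 (limma adjusted p = 0.078, 0.095 and 0.13). LOC_Os01g72170 also lost its call at a pseudocount of 1, with no filter and without the variance trend. Directions turned, without a call, for LOC_Os10g38720 as the ratio of means (0.032) and when 1 pool was left out for LOC_Os10g38340 (-0.0034 to 0.38), LOC_Os10g38470 (-0.076 to 0.24), LOC_Os10g38489 (-0.27 to 0.14), LOC_Os10g38710 (-0.12 to 0.28) and LOC_Os10g38720 (-0.41 to 0.30). With 3 pools per genotype and no read counts, changes under 2-fold were recovered in part only on simulated data.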
